A study of Gallus gallus with 16 samples.

Results

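The 200 genes described here are those of the hen whose transcripts were most specific to the ovary when ovary, pituitary gland and hypothalamus were set side by side. They were chosen by their measured levels. For every gene the mean FPKM (fragments scaled by transcript length and by the mapped fragments of the library, the unit the authors deposited) of the 5 ovaries, of the 6 pituitaries and of the hypothalami HEP 3 and LEP 4 was put on the log2(mean + 1) scale. Genes above 0 in all 5 ovaries with an ovary mean of at least 5 FPKM were ranked by the ovary value minus the larger of the other 2 values, and the first 200 were kept. Of 17108 genes in the table, 9912 met the conditions on the ovary. The difference between tissues is therefore the way these genes were chosen. It is described below without a test.

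The tissues came from 6 female Luhua chickens, a Chinese breed, at 300 days of age. From 856 birds ranked by eggs laid up to that age, the 200 with the most formed the high egg production group (HEP) and the 200 with the fewest the low egg production group (LEP). Hens 1, 2 and 3 were HEP and hens 4, 5 and 6 were LEP. A library is named here by its group and hen number. Libraries with the same number, such as ovary LEP 5 and pituitary LEP 5, were taken to come from the same bird. The sample titles give the numbers without saying that they are birds. The ovary was represented by 2 HEP and 3 LEP libraries, the pituitary by 3 and 3, and the hypothalamus by 2 and 3. Of hen 2 only the pituitary was analysed here. The labels give no genotype and no treatment, all birds had water and feed freely, and they do not say which piece of the ovary was taken or how many follicles it held.

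In a laying hen the ovary holds oocytes at every stage, from small follicles in its cortex to a row of large yolk-filled follicles that ovulate in turn. Each oocyte is enclosed by granulosa cells and, outside these, theca cells, which make steroid hormones under the control of pituitary gonadotropins. Genes specific to the ovary in a bulk library can therefore belong to the germ cell, to the follicle wall or to the stroma, and their levels depend on which of these a sample contains. Fewer cells of a type and less RNA per cell cannot be told apart in such data.

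The table names genes by Ensembl identifier, and 0 of the 17108 identifiers could be matched to a symbol with the gene table used here. Genes are given by identifier for that reason, no role is assigned to any of them, and the tissue labels could not be checked against known granulosa, theca, oocyte, pituitary or brain markers. The depth of the libraries is unknown, since only FPKM values were given. In 13 libraries, 13713 to 14356 genes were listed above 0. In the hypothalami HEP 1, LEP 5 and LEP 6 this number was 6186 to 6843, and these 3 libraries were not used to choose the genes. In each library 3 genes accounted for 47.3% to 75.1% of the summed FPKM.

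**Figure D1:**
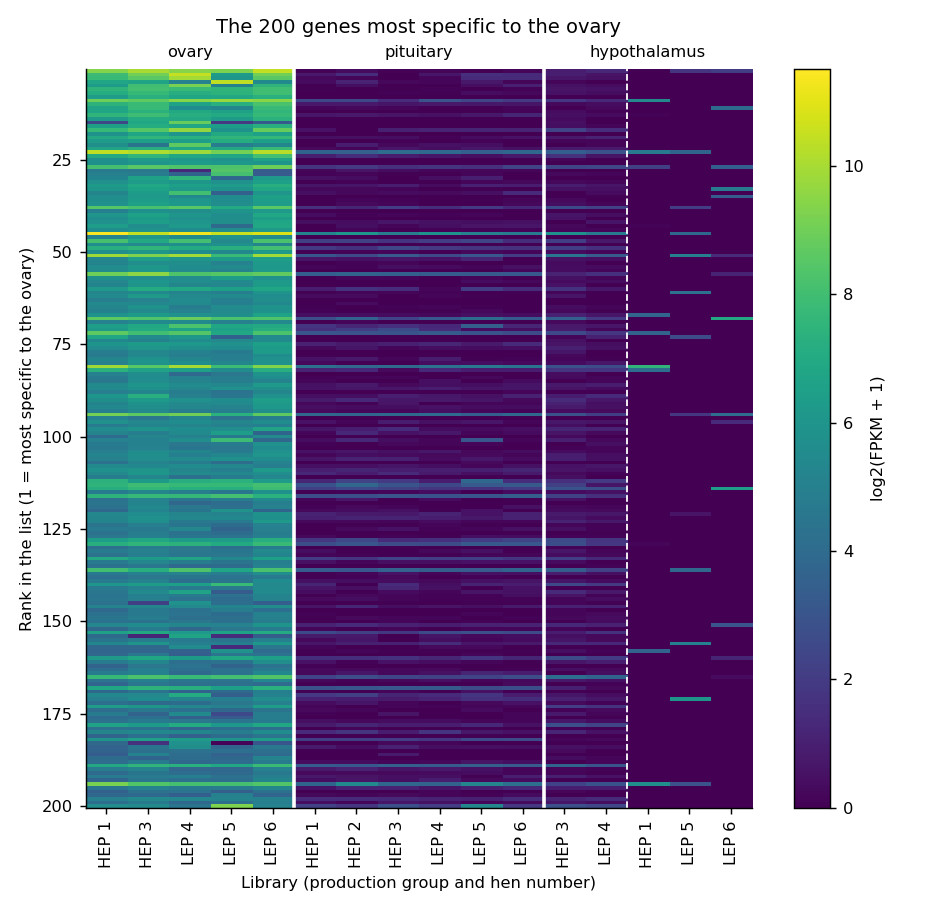
Level of each of the 200 genes (rows, by rank) in each library (columns, named by production group and hen number), as log2(FPKM + 1). The 5 ovary columns stand apart from the pituitary and hypothalamus columns because the genes were chosen that way, and the 3 hypothalamus libraries to the right of the dashed line, which were not used in the choice, list most of the genes at 0.

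Most of the genes were under 1 FPKM in the pituitary and in the hypothalami HEP 3 and LEP 4. Their ovary means ran from 15.3 to 2047 FPKM with a median of 47.0 FPKM, against 21.8 FPKM for the 9912 genes that could have been chosen. In all, 51 of the 200 reached a mean of 100 FPKM and 7 reached 500 FPKM. The median of their pituitary means was 0.233 FPKM and that of the hypothalami HEP 3 and LEP 4 was 0.285 FPKM. In all 8 of these libraries 122 genes stayed under 1 FPKM, and 9 were listed at 0 in all 8. Those 9 were also listed at 0 in the 3 hypothalami not used in the choice. Added up, the 200 genes came to 20401 and 21148 FPKM in the ovaries HEP 1 and HEP 3, to 24578, 17371 and 24497 FPKM in LEP 4, LEP 5 and LEP 6, and to 258 to 364 FPKM in the pituitaries. The tissue next to the ovary was the hypothalamus for 115 genes and the pituitary for 76, while the remaining 9 were at 0 in both.

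The gene at the head of the list, ENSGALG00000027090, stood at 669 and 1016 FPKM in the ovaries HEP 1 and HEP 3 and at 690, 608 and 1373 FPKM in LEP 4, LEP 5 and LEP 6. No pituitary exceeded 0.249 FPKM, and the 5 hypothalami lay between 0.0355 and 3.20 FPKM. All 5 ovaries were thus high, the highest 2.26 times the lowest, and hens of both production groups took part. ENSGALG00000023172, which ranked 6, was more even, at 178 and 265 FPKM in HEP 1 and HEP 3 and 213, 183 and 253 FPKM in the LEP ovaries. ENSGALG00000002428, which ranked 7, had 138 and 208 FPKM in the HEP and 144, 173 and 253 FPKM in the LEP hens. ENSGALG00000017046, which ranked 10, had 173 and 222 FPKM in the HEP and 98.9, 157 and 296 FPKM in the LEP hens. In these 3 genes LEP 6 or HEP 3 was the highest ovary. ENSGALG00000016771, which ranked 8, was listed at 0 in all 11 pituitary and hypothalamus libraries and at 82.2, 158, 107, 115 and 158 FPKM in HEP 1, HEP 3, LEP 4, LEP 5 and LEP 6. A value of 0 in such a table can be a failed estimate, so absence from those tissues is not shown by it.

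Of the 10 most abundant genes of the list, 4 were also among its first 10 by rank, and the 2 most abundant ranked 45 and 23. ENSGALG00000023973 had the highest ovary level, at 2899 and 1382 FPKM in HEP 1 and HEP 3 and at 2544, 1499 and 1909 FPKM in LEP 4, LEP 5 and LEP 6. It also had the highest pituitary level of the list, between 25.9 and 62.1 FPKM in the 6 pituitaries, and stood at 55.2 and 26.7 FPKM in the hypothalami HEP 3 and LEP 4. ENSGALG00000002552, second in abundance, had HEP ovaries of 1332 and 1091 FPKM, LEP ovaries of 893, 548 and 1240 FPKM, and 10.6 to 16.3 FPKM in the pituitary. Both genes were thus well above 1 FPKM in the pituitary as well. A pituitary mean of at least 1 FPKM was found for 42 of the 200 genes and one of at least 5 FPKM for 16. A mean of at least 1 FPKM in the hypothalami HEP 3 and LEP 4 was found for 43.

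At the lower end of the list the ranking value fell gradually. The last genes inside it were ENSGALG00000005643 (3.90 log2 units above the next tissue), ENSGALG00000005038 (3.87) and ENSGALG00000023622 (3.86). The first outside were ENSGALG00000003803 (3.84), ENSGALG00000007706 (3.84) and ENSGALG00000016478 (3.83). The border between members and other genes is thus a cut through a continuous series. With log2(mean + 0.1) as the scale, which gives more weight to differences near 0, 156 of the 200 were kept, and with medians in place of means 193.

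The 3 hypothalami left out of the choice did not enter it, but they are of the same tissue as HEP 3 and LEP 4. The genes were chosen to be low in those, so a low number listed here is not independent of the choice. No comparison was made with other genes equally low in the hypothalamus. Above 0 were 14 of the 200 genes in HEP 1, 14 in LEP 5 and 15 in LEP 6, while 55.4%, 59.8% and 57.5% of the 9912 eligible genes were. In all 3 libraries 165 of the 200 were listed at 0. Only ENSGALG00000027090 was above 0 in each of the 3, and 6 genes were above 0 in 2 of them. Where a gene was listed in these libraries it was often not near 0: 23 of the 200 reached 5 FPKM in at least 1 of them, against 16 in HEP 3 or LEP 4. ENSGALG00000011306 stood at 186 FPKM in hypothalamus HEP 1, at 6.27 and 5.39 FPKM in HEP 3 and LEP 4, and at 0 in LEP 5 and LEP 6. These libraries also list fewer genes than the others, and the part of this in the isolated values was not tested.

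Many of the 200 genes varied from ovary to ovary. The median standard deviation of log2(FPKM + 1) over the 5 ovaries was 0.42 for them and 0.22 for all 9912 eligible genes. In 99 of the 200 (49.5%) the highest ovary was under 2 times the lowest, which held for 82.8% of the eligible genes. In 33 (16.5%) it was at least 4 times the lowest, against 2.37%. These shares are descriptions of the list and were not tested. The mean used for the ranking lets a gene with 1 very high ovary enter, and the part of this in the spread was not tested. Without the ovaries LEP 4 and LEP 5, the pair in which most of the large deviations lay, the median standard deviation was 0.40 for the list and 0.17 for the eligible genes.

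**Figure D2:**
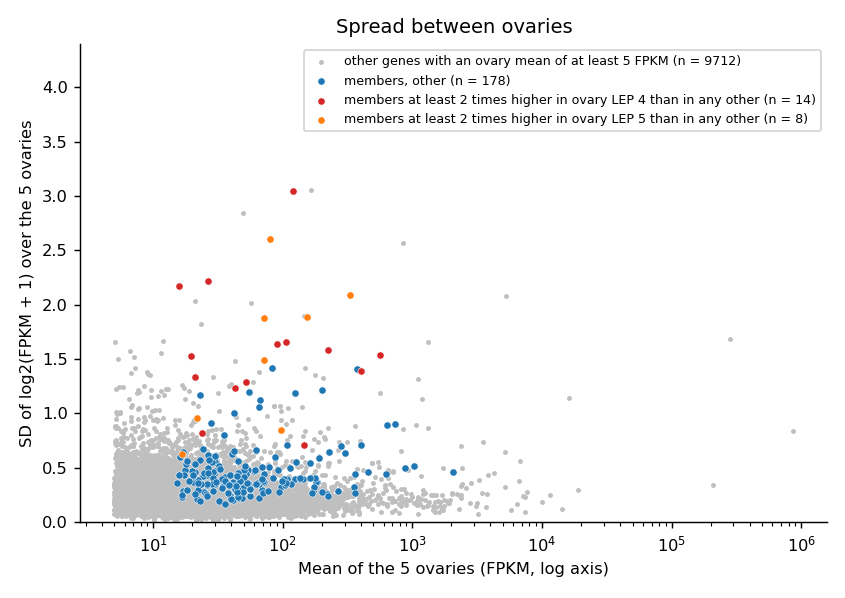
Standard deviation of log2(FPKM + 1) over the 5 ovaries (vertical axis) against the mean of the 5 ovaries in FPKM (horizontal axis, log scale) for the 200 genes and the 9712 other genes with an ovary mean of at least 5 FPKM. Each point is a gene. Of the 200, the 14 at least 2 times higher in LEP 4 than in any other ovary and the 8 at least 2 times higher in LEP 5 include the 5 largest values, up to 3.05.

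Ovary LEP 6 was the highest of the 5 for 105 of the 200 genes (52.5%), and for 40.7% of the eligible genes. HEP 3 was the highest for 32 genes, LEP 4 for 30, LEP 5 for 20 and HEP 1 for 13. Ovary LEP 5 was the lowest for 89 genes (44.5%), against 27.6% of the eligible genes, and HEP 1 for 56 (28%, against 24.1%). LEP 6 was thus most often the highest ovary and LEP 5 or HEP 1 the lowest. The median-ratio size factor, taken over the genes above 0 in all 5 ovaries, was also highest in LEP 6, at 1.10. It was lowest in LEP 5, at 0.939. After division by these factors LEP 6 was the highest ovary for 87 of the 200 (43.5%) and for 21.2% of the eligible genes. Among the 99 genes with a range under 2 times, 55 were highest in LEP 6 and 23 in HEP 3.

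The most even genes differed little between hens. ENSGALG00000005643 had the smallest standard deviation, 0.17, at 31.4 and 41.1 FPKM in the ovaries HEP 1 and HEP 3 and 39.7, 33.9 and 32.6 FPKM in LEP 4, LEP 5 and LEP 6. ENSGALG00000016664 followed at 0.19, with 26.4 and 35.9 FPKM in the HEP and 37.1, 31.2 and 30.5 FPKM in the LEP hens. The groups overlapped in both genes. ENSGALG00000000878 and ENSGALG00000000284 came next at 0.20 and ENSGALG00000025810 at 0.21.

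A group of 14 genes was at least 2 times higher in ovary LEP 4 than in any other ovary (7% of the list, against 0.484% of the eligible genes). The ranking used the mean over the ovaries, so a high value in LEP 4 could itself bring a gene onto the list. The shares are thus not set against like genes. ENSGALG00000016669, second in the list, stood at 233 and 536 FPKM in the ovaries HEP 1 and HEP 3 and at 1431, 81.4 and 525 FPKM in LEP 4, LEP 5 and LEP 6. ENSGALG00000006323, which ranked 3, had the same order of hens except that LEP 6 passed HEP 3, with 222 and 376 FPKM in the HEP and 960, 67.9 and 381 FPKM in the LEP hens. ENSGALG00000022817, which ranked 5, had 79.7 and 250 FPKM in the HEP and 578, 31.7 and 178 FPKM in the LEP hens. In all 3 LEP 4 was highest and LEP 5 lowest, so that the ends of the range were both LEP hens. ENSGALG00000016667 had the largest standard deviation of the list, 3.05, with 4.42 and 119 FPKM in the HEP and 460, 2.71 and 8.51 FPKM in the LEP hens. It was listed at 0 in every pituitary and above 0 in a single hypothalamus. ENSGALG00000010153 reached 105 FPKM in LEP 4 and 1.38 to 14.5 FPKM in the other ovaries. ENSGALG00000002926 reached 55.0 FPKM in LEP 4 and 0.096 to 14.9 FPKM in the others. The sharpest excess was that of ENSGALG00000004692, which reached 396 FPKM in LEP 4 and 20.8 to 50.4 FPKM in the other 4 ovaries. The excess over the next ovary ran from 2.04 to 7.85 times in the 14 genes, with a median of 2.77. LEP 5 was the lowest ovary in 9 of them, HEP 3 in 3 and HEP 1 in 2.

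A second group, of 8 genes, was at least 2 times higher in ovary LEP 5 (4% of the list, against 0.676% of the eligible genes). Here too the high ovary is part of the mean used for the ranking and could bring a gene onto the list. These shares are likewise not set against like genes. ENSGALG00000006992, which ranked 4, stood at 1353 FPKM in LEP 5, at 107 and 104 FPKM in HEP 1 and HEP 3, while LEP 4 and LEP 6 held 33.3 and 44.3 FPKM. ENSGALG00000017183 stood at 341 FPKM in LEP 5, at 25.9 FPKM in HEP 1 and 22.7 FPKM in HEP 3, while LEP 4 and LEP 6 held 1.39 and 9.25 FPKM. The HEP ovaries lay between the LEP ovaries in both genes. The excess over the next ovary ran from 2.26 to 13.2 times in the 8 genes, with a median of 6.76, and the lowest ovary was LEP 4 in 5 of them and LEP 6 in 3. Just 2 genes of the list were 2 times higher in an ovary other than LEP 4 and LEP 5, ENSGALG00000009444 in HEP 3 and ENSGALG00000003494 in LEP 6.

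In 2 of these 8 genes, named after their values were seen, pituitary LEP 5 also stood above the other 5 pituitaries at a level of more than 1 FPKM. In ENSGALG00000019063, another of the 8, it was highest by little and near 0, at 0.145 FPKM against 0 to 0.133 FPKM. ENSGALG00000023622, the last gene of the list, stood at 625 FPKM in ovary LEP 5 and at 21.5 to 49.1 FPKM in the others. It stood at 40.4 FPKM in pituitary LEP 5 and at 2.54 to 6.07 FPKM in the other 5 pituitaries. ENSGALG00000010926 stood at 233 FPKM in ovary LEP 5 and at 12.9 to 48.2 FPKM in the others, and at 7.43 FPKM in pituitary LEP 5 and 0.102 to 1.43 FPKM in the other pituitaries. Both organs of hen 5 were thus high for ENSGALG00000023622 and ENSGALG00000010926. The ovary means that ranked these genes, 155 and 71.9 FPKM, include the high value of ovary LEP 5. The ovary that shows the excess thus also helped to put both genes on the list. Pituitary LEP 5 was at least 2 times the next pituitary in 5 of the 68 genes with at least 1 FPKM in a pituitary (7.35%, against 0.294% of the eligible genes with that level). One of them, ENSGALG00000024272, had 10.1 FPKM in pituitary LEP 5 and 1.38 to 2.30 FPKM in the others. Its ovary LEP 5, at 109 FPKM, lay within the range of the other ovaries (84.1 to 305 FPKM). Over the wider list, 62 genes had at least 1 FPKM in a pituitary of the 5 hens with both organs. For 13 of them (21.0%) the same hen was highest in ovary and pituitary, against 26.6% of the eligible genes with that level. The members were chosen to be low in the pituitary, so a member may reach 1 FPKM only in the pituitary where it is high. The shares among the 68 and the 62 genes are thus not set against like genes and cannot show a trait of hen 5.

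Another pattern, of 19 genes, was at least 2 times lower in ovary LEP 5 than in any other (9.5% of the list, against 1.07% of the eligible genes). It shared 8 genes with the group high in LEP 4. Those 8 could enter the list through LEP 4, so the shares are not fully those of like genes. Among the remaining 11 were several of the most abundant genes. ENSGALG00000006343 stood at 927 and 622 FPKM in HEP 1 and HEP 3 and at 951, 222 and 966 FPKM in LEP 4, LEP 5 and LEP 6. ENSGALG00000006126 had 553 and 383 FPKM in the HEP and 518, 160 and 403 FPKM in the LEP hens. ENSGALG00000022815 was more graded, with HEP values of 208 and 348 FPKM and LEP values of 799, 58.9 and 443 FPKM. The gap between LEP 5 and the next ovary was 2.01 to 22.5 times in the 19 genes, with a median of 2.86. ENSGALG00000011306, whose ovary values were 933, 369, 997, 237 and 647 FPKM in HEP 1, HEP 3, LEP 4, LEP 5 and LEP 6, was also lowest in LEP 5 but fell short of this gap. In total 33 of the 200 genes followed at least 1 of the 3 patterns and 167 followed none. Each pattern rests on a single ovary. The 3 most abundant genes held 75.1% of the summed FPKM in LEP 4, 67.1% in LEP 5, 58.1% in HEP 3, 52.0% in LEP 6 and 47.3% in HEP 1, and their part in the patterns was not tested.

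**Figure D3:**
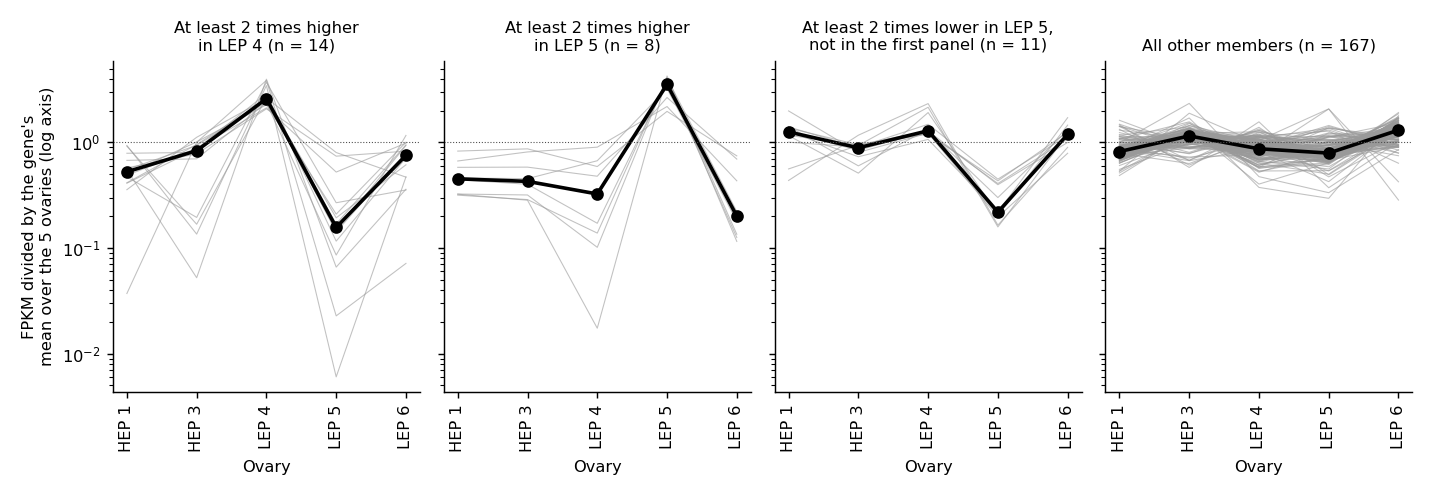
FPKM of each gene in each ovary divided by the gene's mean over the 5 ovaries (vertical axis, log scale) for the 14 genes high in LEP 4, the 8 high in LEP 5, the 11 low in LEP 5 that are not among the first 14, and the remaining 167. Grey lines are genes and the black line their median, and the dotted line marks the gene's mean. The first panels peak in a single LEP ovary, while the 167 genes follow none of the patterns and include the 99 whose highest ovary was under 2 times the lowest.

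The study compared hens of high and low egg production. The groups did not enter the choice of genes, but the ovary values tested here did, as a mean over 2 HEP and 3 LEP ovaries. A gene high in a single LEP ovary could enter through it, so the sign of a difference is not fully independent of the choice. Between HEP and LEP ovaries, 0 of the 200 genes passed an adjusted p of 0.05 in limma's moderated test on log2(FPKM + 1), where 0.0325% of all 12326 genes tested passed. The 4 genes of that percentage were listed at 0 throughout a group. A gene at 0 in any ovary was barred from the list, so none of the 4 could belong to it. The 0 of 200 and the 0.0325% are thus not shares of like genes. All 200 entered the test, since a mean of at least 1 FPKM was required. An unadjusted p under 0.05 was reached by 3 of the 200 (1.5%) and by 1.4% of all genes. HEP was higher in 86 of the 200 genes and lower in 114, and over all genes tested 46% were higher and 54% lower.

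The median HEP minus LEP difference of the list was -0.02 on the log2 scale, as was that of all genes. It ranged from -1.25 to 1.54 over the 200 genes, and the middle of the list (25th to 75th percentile) lay between -0.14 and 0.13. The sign of the median was not stable, with 0.21 without HEP 1, -0.23 without HEP 3, 0.17 without LEP 6, and 0.04 after quantile normalization of all 5 ovaries. The HEP and LEP ovaries did not overlap in 5 of the 200 genes (2.5%), 3 of them higher and 2 lower in HEP. Over all genes tested they did not overlap in 14.2%, with 4.68% higher and 9.49% lower. A difference of at least 1 log2 unit in either direction was found for 6 of the 200 (3%) and for 1.24% of all genes. Of the 6, 3 were lower in HEP and 3 were higher. Each of the 3 lower ones stood at least 2 times higher in a single LEP ovary than in any other. Such a gene could enter the list through that ovary, so the shares are not set against like genes. The median standard error of a difference was 0.32 for the list and 0.23 for all genes, so that a difference of a given size was less well resolved here.

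The gene nearest to a difference was ENSGALG00000022586, which ranked 9, where the HEP ovaries held 494 and 397 FPKM and the LEP ovaries 690, 858 and 704 FPKM. Each LEP ovary was above each HEP ovary, with means of 445 ± 68.8 FPKM (SD, n = 2) and 751 ± 93.4 FPKM (SD, n = 3). Its log2 difference was -0.75 (SE 0.18, limma adjusted p = 1.00). ENSGALG00000014877 went the other way, with 491 and 715 FPKM in the HEP and 311, 357 and 410 FPKM in the LEP hens (log2 difference 0.73, SE 0.22, limma adjusted p = 1.00). Its 2 HEP ovaries were above all 3 LEP ovaries, and without HEP 3 the difference was 0.46. ENSGALG00000009444 had the largest positive difference of the list, 1.54 (SE 0.48, limma adjusted p = 1.00), with 65.4 and 154 FPKM in the HEP and 31.1, 21.9 and 56.2 FPKM in the LEP hens. It also did not overlap, but HEP 3 alone held the high value, and without HEP 3 the difference was 0.93. None of these genes passed, and with 2 against 3 hens that does not show that the groups were alike.

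The genes high in a single LEP ovary were also set out by their HEP minus LEP difference. Of the 14 genes high in LEP 4, 12 had a negative and 2 a positive HEP minus LEP difference, with a median of -0.16. Of the 8 genes high in LEP 5, 7 were negative and 1 positive, with a median of -0.32. The ovary that defines each of these groups is a LEP ovary, so neither their sign nor their spread among the LEP ovaries is independent of the choice. They cannot show whether HEP and LEP separate. Among the 176 genes with no ovary at 2 times the next, the difference was positive in 82 and negative in 94 (median -0.01).

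**Figure D4:**
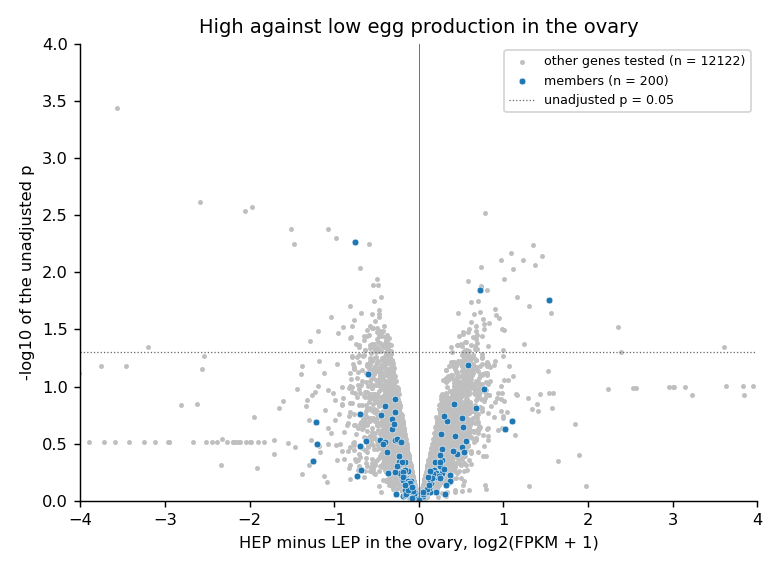
HEP minus LEP difference in the ovary on the log2(FPKM + 1) scale (horizontal axis) against -log10 of the unadjusted limma p (vertical axis), for the 200 genes and the other genes tested. Each point is a gene, the dotted line marks an unadjusted p of 0.05, and 21 other genes, the 4 that passed included, lie outside the plotted range or are not drawn. The 200 genes are spread on both sides of 0 and 3 of them lie above the line.

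In the pituitary 42 of the 200 genes reached the mean of 1 FPKM needed for the test, and 0 of the 42 passed between HEP and LEP, as did 0% of the 11820 genes tested. These 42 are the members least absent from the pituitary and do not stand for the list. At such low levels the log2(FPKM + 1) scale understates a change. At an unadjusted p under 0.05 there were 3 of the 42 (7.14%), and 2.06% of all genes. The groups did not overlap in 6 of the 42 (14.3%), 3 higher and 3 lower in HEP. Over all genes it was 5.14% (1.29% higher, 3.84% lower). Members were chosen to be low in the pituitary, so some pass the mean of 1 FPKM through the group where they are high. ENSGALG00000005599, with means of 0.904 FPKM in HEP and 1.68 FPKM in LEP, is an example. The shares of the 42 are thus not set against like genes and are no result about the members. ENSGALG00000017343 stood at 1.91, 3.14 and 4.92 FPKM in the HEP pituitaries and at 1.65, 0.287 and 0.374 FPKM in the LEP pituitaries (log2 difference 1.31, SE 0.36, limma adjusted p = 1.00). In the ovary the same gene had 72.6 and 131 FPKM in the HEP and 101, 93.7 and 145 FPKM in the LEP hens, with overlap of the groups. ENSGALG00000011306 had HEP pituitaries of 18.1, 12.8 and 14.6 FPKM and LEP pituitaries of 19.4, 26.8 and 20.8 FPKM, without overlap (log2 difference -0.53, SE 0.19, limma adjusted p = 1.00). ENSGALG00000014877, described above for the ovary, had HEP pituitaries of 9.81, 11.7 and 10.6 FPKM and LEP pituitaries of 9.27, 8.24 and 7.66 FPKM, again without overlap (log2 difference 0.32, SE 0.16, limma adjusted p = 1.00). ENSGALG00000003584 was also higher in HEP pituitaries without overlap, with means of 4.03 and 2.55 FPKM (log2 difference 0.51, SE 0.21). In the ovary its difference was -0.05, and the groups overlapped.

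Whether the HEP minus LEP difference itself differed between ovary and pituitary was tested over the 11 libraries of both organs. The genes were chosen to be low in the pituitary: 28 of the 200 were at 0 in all 6 pituitaries, and 42 reached a mean of 1 FPKM there. For most of the list the test therefore largely repeats the ovary difference and says little about the pituitary. In limma, 0 of the 200 genes passed, and 0.0158% of the 12638 genes tested did. An unadjusted p under 0.05 was reached by 3 of the 200 (1.5%) and by 1.04% of all genes. It was at least 1 log2 unit in either direction for 6 of the 200 (3%). No share over all genes is given beside this count, so it is no result about the members. ENSGALG00000009444 had a difference 1.69 log2 units higher in the ovary than in the pituitary (SE 0.55, limma adjusted p = 1.00). Its difference in the ovary alone was 1.54, and its pituitary mean was 0.641 FPKM. For ENSGALG00000017343 the ovary difference minus the pituitary difference was -1.49 (SE 0.52, limma adjusted p = 1.00). HEP against LEP was not tested in the hypothalamus, where 3 of the 5 libraries list few genes and 165 of the 200 members were at 0 in those 3.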

How the data were processed

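RNA of pituitary gland, ovary and hypothalamus was isolated by column (RNeasy Mini Kit), and an Illumina instrument read the libraries, per the labels' protocols. The authors deposited FPKM values, 1 column per library and 17108 rows. The sources used here name no aligner, quantification tool, genome build or annotation. FPKM is scaled by gene length and library size, so a few very abundant genes shift all others, and depth is unknown. The gene list, the patterns among ovaries and the tests were chosen with earlier results of these data known. Python 3.11.15 with pandas 2.3.3 computed the list. limma 3.58.1 in R 4.3.3 (empirical Bayes with trend) was fitted to log2(FPKM + 1) of genes with a mean of at least 1 FPKM over the libraries of the fit. It was tried beforehand on simulated data. P values are two-sided, Benjamini-Hochberg adjusted over all genes tested, with a threshold of 0.05. The difference between organs used 4 group means over 11 libraries and treated the organs of a hen as independent. Sample numbers shared between tissues were taken as hen numbers, so the pairing of tissues by hen is inferred from the numbering. Deviations from group means correlated between ovary and pituitary of a hen with r of -0.037 to 0.142 across 12638 genes. Hens are nested in the groups, so hen could be a block only for the difference between organs. Each hen is a separate animal. Genes were named as the first 10, the last 3 inside and first 3 outside the list, the 10 most abundant, the 5 of largest and 5 of smallest spread, and those of lowest p between HEP and LEP, at most 2 in each direction. Others are named as examples chosen after their values were seen. The lists of genes by symbol could not be applied. Of the 200 genes 0 had a symbol, and no sequence is printed for that reason.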

Additional observations from a re-analysis of the deposited data

Results flagged for a closer look

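The hypothalami HEP 1, LEP 5 and LEP 6 were used neither to choose the genes nor in a test, and 3 of the 200 genes stood higher in one of them than in their lowest ovary. ENSGALG00000005599 was listed at 60.2 FPKM in hypothalamus LEP 5, above all 5 ovaries (29.6 to 49.5 FPKM), at 0 in HEP 1 and LEP 6, and at 1.08 and 0.643 FPKM in HEP 3 and LEP 4. ENSGALG00000003438 was listed at 32.4 FPKM in hypothalamus LEP 5, within the range of its ovaries (29.0 to 69.2 FPKM). ENSGALG00000019552 was listed at 11.7 FPKM in hypothalamus HEP 1, where its ovaries ran from 10.4 to 57.6 FPKM. Each was at 0 in the other 2 of these libraries, and why was not tested.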

How the results depend on the processing

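No gene of the list passed in any fit tried, for the ovary, the pituitary or the difference between the organs, and the lowest adjusted p of a member in any of them was 0.321, without ovary LEP 6 (limma, range over the alternatives 0.321 to 1.00). The count over all genes in the ovary was 4, was 0 once genes with both a 0 and a value of 10 FPKM or more among the ovaries were removed, which removes these 4 by construction, and lay between 4 and 12 when a library was left out (leaving out HEP 1 gave 12, LEP 6 gave 10, HEP 3 gave 8, LEP 5 gave 7 and LEP 4 gave 4). In the pituitary it was 0, was 1 with log2(FPKM + 0.1), and lay between 1 and 4 when any of the 6 libraries was left out. For the difference between the organs it was 2, and lay between 2 and 8 when a hen was left out (8 without hen 1, 5 without hen 3 or 6, 4 without hen 4). The fit with hen as replicate block left out hen 2, which had no ovary, and gave 3. Without hen 2 and without the block it was also 3. With this block 0 members passed, so the pairing left the count over all genes at 3 and changed no call of a member. The 10 members followed through the alternatives, the 5 of lowest p in each direction, kept their direction in each of the 12 alternatives. They were chosen by the main fit, so a kept direction is partly built in. Some alternatives, such as limma without trend, leave the difference itself unchanged and could not alter it. The list itself kept 184 of its 200 genes when all 5 hypothalami were used and 197 after median-ratio scaling. It kept 193 to 199 when an ovary was left out. A floor of 1 FPKM kept all 200, which was fixed in advance. A gene with an ovary mean under 5 FPKM cannot reach 3.86, the lowest ranking value of the list. The settings for the spread between ovaries were chosen after seeing the data. The median spread of the list was 0.36 after median-ratio scaling and 0.43 with log2(FPKM + 0.1). Only 2 HEP ovaries were available, so leaving one out assumes that the other varies like the LEP ovaries.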
